A study of Mus musculus with 2 samples.

Results

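The 10 genes examined here belong to the bone morphogenetic protein (BMP) pathway and were followed through the cell classes of the mouse heart at E12.5. They are the ligands Bmp2, Bmp4, Bmp5, Bmp7 and Bmp10, the type I receptor Bmpr1a, and the target genes Id1, Id2, Id3 and Id4. They were matched by symbol in the deposited gene table and are 10 of the 31053 genes listed there. The study profiled single cells of dissociated hearts with the 10X Genomics Chromium kit, version 2 per the labels. The control matrix lists as many barcodes as a later kit, so the version is uncertain. The control carried Tbx18-Cre and 1 YFP allele. The mutant carried Tbx18-Cre, 1 YFP allele and floxed Prmt1 on both chromosomes. Both groups therefore share the Cre driver and the reporter, and a Prmt1-floxed heart without Cre is not analysed here. Cre is expressed where Tbx18 is, which includes the epicardium that covers the heart, and Prmt1 encodes a protein arginine methyltransferase. How many embryos were pooled, and whether cells were sorted, is not given in the sources used here. Each genotype has 1 library, so differences have no replicate check and no test. Every interval is an exact 95% interval that covers counting error only.

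BMP ligands are secreted dimers that bind pairs of type I and type II receptors. The type I receptor phosphorylates Smad1, Smad5 and Smad9, which enter the nucleus with Smad4, and the Id genes are among their best known direct targets. Id proteins lack a DNA-binding region and hold E proteins away from DNA. In the embryonic heart BMP signals are known for their part in the growth of trabeculae, in the patterning of the atrioventricular canal and outflow tract, and in the formation of cushion mesenchyme.

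Filtering left 4100 control cells, whose median depth was 5896.5 UMIs, and 4640 mutant cells, whose median depth was 4046. A UMI is a molecular tag that marks 1 captured RNA molecule. Of these cells, 3044 in the control and 3108 in the mutant fell into 1 of 6 classes defined by marker genes. The classes held 1493 and 1171 ventricular cardiomyocytes, 416 and 306 atrial cardiomyocytes, and 85 and 64 cardiomyocytes with Rspo3 and Kcne1. They held 204 and 350 epicardial, 596 and 879 mesenchymal, and 250 and 338 endothelial cells, control before mutant throughout. Levels are given as CPM, the UMIs of a gene per 1000000 UMIs of the class. Endothelial markers summed to 3781 and 3911 CPM in endothelial cells. The epicardial marker set summed to 2626 and 2057 CPM in epicardial cells and to 17.1 and 16.5 CPM in mesenchymal cells. Mesenchymal markers did not separate those classes, at 3700 and 3060 CPM in epicardial and 2915 and 2458 CPM in mesenchymal cells. Prmt1 stood at 465 CPM in control and 385 CPM in mutant epicardial cells and was higher in the mutant in the other 5 classes, and a count taken at the 3′ end of the transcript does not check a deletion elsewhere in the gene.

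On GRCm38, with GENCODE M21 annotation, the ligand genes lie at chr2:133552159-133562885 for Bmp2, chr14:46383520-46390669 for Bmp4, chr9:75775364-75900310 for Bmp5, chr2:172868012-172940321 for Bmp7 and chr6:87428994-87437677 for Bmp10. Bmpr1a lies at chr14:34410734-34503341. The Id genes lie at chr2:152736251-152737410 for Id1, chr12:25093799-25097140 for Id2, chr4:136143497-136145755 for Id3 and chr13:48261228-48266026 for Id4. Genes on the opposite strand overlap Bmp4, Bmp5, Bmpr1a and Id4 in that annotation, and Gm47723 overlaps Bmp5 on the same strand. The values of these 4 genes are less certain, since the strand setting of the authors' counting is not given in the sources used here.

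Upstream sequence was matched for 7 of the 10 genes in the RefSeq promoter table for GRCm38.p6, namely Bmp4, Bmp5, Bmp10, Bmpr1a, Id2, Id3 and Id4. The 3 stretches below are shown because Id2 and Id4 are targets of the pathway and Bmp4 is the ligand that was lower in the mutant library in 4 classes. Of these, ventricular and atrial cells were under the minimum level set for a call. Capitals mark GGCGCC, which is its own reverse complement, and GGAGCC on either strand, short motifs known to be bound by BMP Smads.
Id2, chr12:25096254-25096342, minus strand: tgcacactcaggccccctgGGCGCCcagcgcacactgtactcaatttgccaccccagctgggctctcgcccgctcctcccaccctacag
Id4, chr13:48260866-48261115, plus strand: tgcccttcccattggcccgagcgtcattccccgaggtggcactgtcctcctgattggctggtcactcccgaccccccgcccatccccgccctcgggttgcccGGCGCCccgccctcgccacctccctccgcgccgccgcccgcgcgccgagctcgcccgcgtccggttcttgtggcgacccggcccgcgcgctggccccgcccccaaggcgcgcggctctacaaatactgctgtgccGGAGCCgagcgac
Bmp4, chr14:46390670-46390919, minus strand: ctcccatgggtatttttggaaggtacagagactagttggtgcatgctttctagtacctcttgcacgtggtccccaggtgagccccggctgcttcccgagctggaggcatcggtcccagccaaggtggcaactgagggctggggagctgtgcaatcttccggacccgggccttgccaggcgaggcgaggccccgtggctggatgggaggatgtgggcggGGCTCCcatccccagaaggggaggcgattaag
In the 250 bases before the start site, GGCGCC begins at -231 in Id2, -148 in Id4 and -198 in Bmpr1a. GGAGCC, on 1 of the strands, begins at -88 in Id2, -187 in Id3, -13 in Id4 and -32 in Bmp4. Only the part of the Id2 window outside annotated UTRs is printed. Bmp5 and Bmp10 held neither motif there. Of all 32851 promoter windows of that length, 9.59% held GGCGCC and 26.0% held GGAGCC, so these short motifs are common, and a match is a description of letters rather than a binding site. The E-box CANNTG, the motif of E proteins, was found in Bmp4 and Id2 and in 66.2% of all windows. The capitalised motifs do not overlap one another.

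The ligands differed in the classes where they were highest. Bmp7 was a cardiomyocyte ligand. Bmp4 was highest in epicardial cells of both libraries, followed by Rspo3-positive cells in the control and mesenchymal cells in the mutant. The control intervals of Bmp4 in epicardial and Rspo3-positive cells overlap, as do those of Bmp2 in mesenchymal and epicardial cells. Bmp2 was highest in mesenchymal cells of the control and in Rspo3-positive cardiomyocytes of the mutant, but without cells above 40000 UMIs mesenchymal cells ranked first in the mutant too, at 31.3 CPM against 23.1 CPM. Bmp5 and Bmp10 were low, with most of their UMIs in cardiomyocytes. The non-muscle classes held fewer UMIs in all, which limits that comparison. The levels of all 10 genes by class are drawn in the plot of levels.

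**Figure D1:**
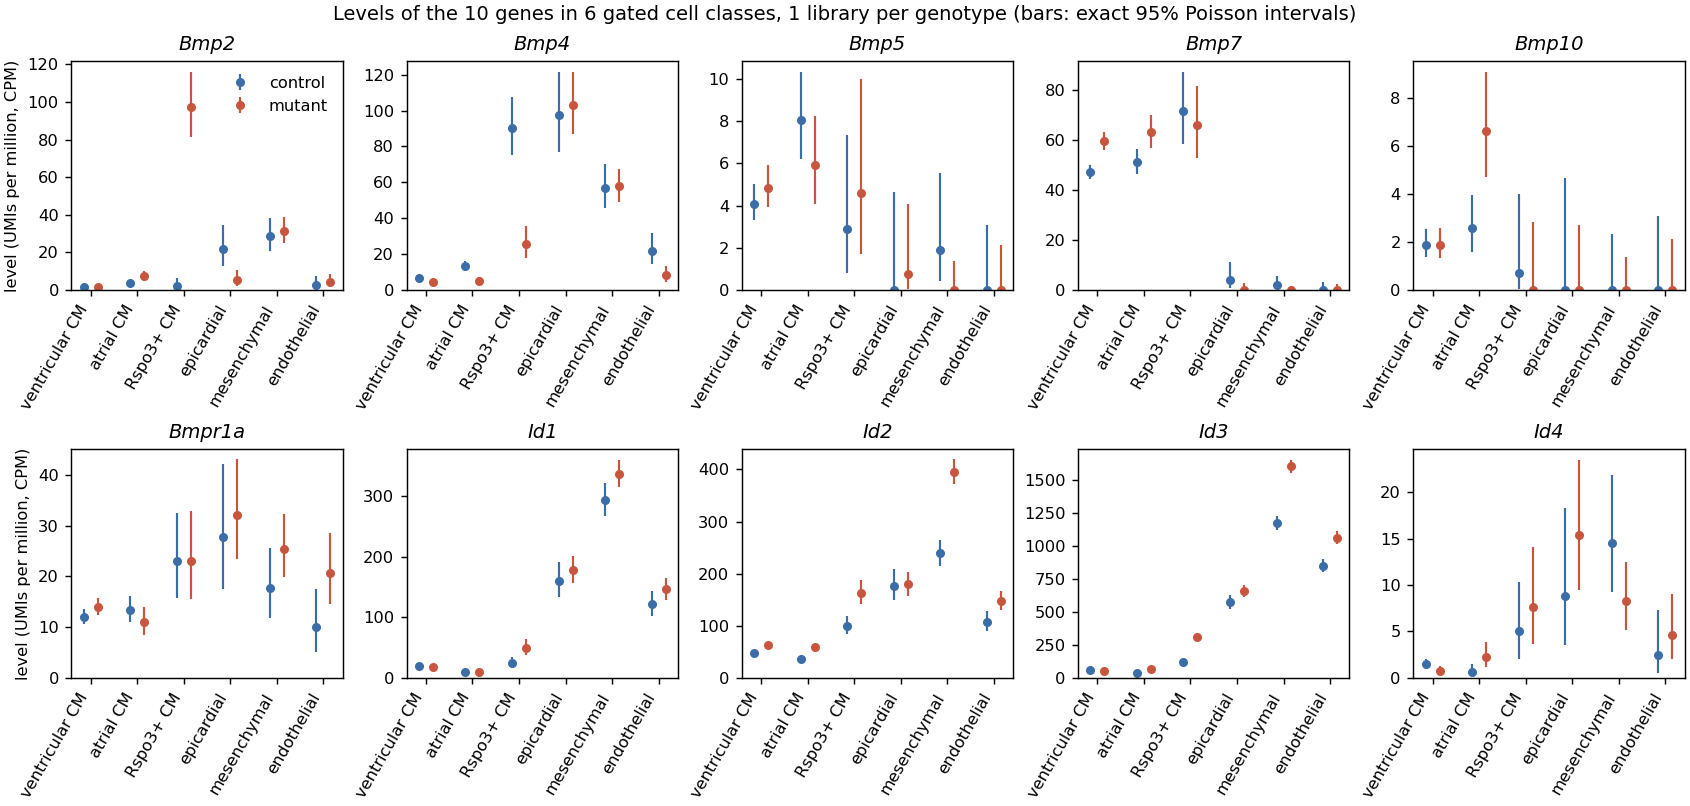
Level of each gene in CPM (vertical axis, from 0, scaled per gene) in the 6 cell classes (horizontal axis, CM for cardiomyocytes), with the control in blue and the mutant in red. Points are 1 library each and bars are exact 95% Poisson intervals. Bmp2 in Rspo3-positive cardiomyocytes stands at 2.15 CPM for the control and 97.5 CPM for the mutant, and Id3 is highest in mesenchymal cells of both libraries.

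Bmp7, a ligand known from the early myocardium, was counted at 47.2 CPM in control and 59.5 CPM in mutant ventricular cells, from 1086 and 1180 UMIs. The atrial levels were 51.2 and 63.1 CPM. The mutant level was 1.26 times the control level (1.16 to 1.37) in ventricular cells and 1.23 times (1.07 to 1.42) in atrial cells, below 1.5-fold in each. Rspo3-positive cells had the highest Bmp7 level of any class, 71.7 CPM in the control and 66.0 CPM in the mutant, although the mutant interval overlaps that of atrial cells. Without cells above 40000 UMIs the mutant order turned, with 48.1 CPM in Rspo3-positive, 62.3 CPM in atrial and 53.1 CPM in ventricular cells. The non-muscle classes held almost none: 3 UMIs each in control epicardial and mesenchymal cells, and 0 UMIs in the same classes of the mutant and in endothelial cells of both libraries. A count of 0 allows up to 2.19 CPM in mutant epicardial cells and 1.12 CPM in mutant mesenchymal cells, taking 3 UMIs as the limit. Within ventricular cells, Bmp7 was 56.1 and 66.0 CPM in cells rich in Nppa, a marker of trabecular myocardium, and 44.7 and 54.8 CPM in cells poor in it, so the higher mutant level was seen in both subsets.

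Bmp10, known as a ligand of trabecular and atrial myocardium, was sparse. It stood at 1.87 CPM in ventricular cells of each library, from 43 and 37 UMIs. Nppa-rich ventricular cells had 4.04 CPM in the control and 4.57 CPM in the mutant, against 1.07 and 0.884 CPM in Nppa-poor cells. In atrial cells the level was 2.57 CPM from 20 UMIs in the control and 6.61 CPM from 38 UMIs in the mutant, a ratio of 2.57 (1.46 to 4.67). This gene lay under the mean of 10 CPM required for a 1.5-fold call. Its UMIs were spread over 19 control and 28 mutant atrial cells, with at most 6 in 1 cell. Rspo3-positive cells held 1 and 0 UMIs. No UMI was seen in epicardial, mesenchymal or endothelial cells of either library. With 3 UMIs as the limit, this allows up to 3.79, 1.90 and 2.50 CPM in the control, above the ventricular level. In the mutant it allows up to 2.19, 1.12 and 1.72 CPM.

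Bmp5, another ligand of the heart tube, was low, with most of its UMIs in cardiomyocytes. Atrial cells held 8.08 CPM in the control and 5.91 CPM in the mutant, and ventricular cells 4.09 and 4.84 CPM. The ratios of 0.731 (0.467 to 1.13) and 1.19 (0.883 to 1.59) both span 1. Rspo3-positive cells held 4 and 6 UMIs, and the non-muscle classes between 0 and 3 UMIs. The control mesenchymal level was 1.90 CPM (0.392 to 5.55), an interval that holds the control ventricular level.

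Bmp4, a ligand best known in the heart from the outflow tract, was 97.4 CPM in control and 103 CPM in mutant epicardial cells, from 77 and 141 UMIs. Mesenchymal cells held 57.0 and 57.7 CPM. The ratios were 1.06 (0.796 to 1.42) and 1.01 (0.776 to 1.33), so counting error alone spans equality in both classes. In the 3 cardiomyocyte classes and in endothelial cells, by contrast, the mutant library was lower. Ventricular cells had 6.74 and 4.19 CPM, atrial cells 13.1 and 5.04 CPM, Rspo3-positive cells 90.4 and 25.3 CPM, and endothelial cells 21.6 and 8.02 CPM. The control level was 1.61 times the mutant level (1.22 to 2.13) in ventricular, 2.60 times (1.70 to 4.07) in atrial, 3.57 times (2.42 to 5.41) in Rspo3-positive and 2.70 times (1.36 to 5.59) in endothelial cells. In ventricular and atrial cells Bmp4 lay under the mean of 10 CPM required for a call. A Bmp4 UMI was seen in 5.49% of control and 5.04% of mutant ventricular cells and in 8.65% and 7.52% of atrial cells. The endothelial value was thin: 10 of the 26 control UMIs came from 1 cell, and without the richest cell of each library the levels were 14.2 and 6.35 CPM. They were 9.77 and 6.89 CPM without cells above 40000 UMIs. Among mesenchymal cells, those with 2 or more UMIs of Cxcl12 and Eln together, called the vessel wall subset, had the highest Bmp4. It was 156 CPM in 38 control cells and 117 CPM in 30 mutant cells. Cxcl12 and Eln are genes of the vessel wall and outflow tract.

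Bmp2, known as the ligand of the atrioventricular canal, was low in ventricular cells, at 1.57 CPM in the control and 1.26 CPM in the mutant. Mesenchymal cells held 28.5 CPM from 45 UMIs and 31.5 CPM from 84 UMIs, a ratio of 1.10 (0.760 to 1.62). Epicardial cells held 21.5 CPM from 17 control UMIs and 5.12 CPM from 7 mutant UMIs. That control level was 4.2 times the mutant level (1.66 to 12), but the UMIs fell short of the 30 required for a call, and they came from 10 control and 5 mutant cells. Atrial cells held 3.34 and 7.30 CPM, with 15 and 13 of the 42 mutant UMIs in 2 single cells, and 1.94 and 10.3 CPM without cells above 40000 UMIs. Endothelial cells held 3 and 7 UMIs.

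The largest difference of any of the 10 genes was in Rspo3-positive cardiomyocytes, a small class of 85 control and 64 mutant cells. Bmp2 was counted 3 times in the control, 2.15 CPM, and 127 times in the mutant, 97.5 CPM, a ratio of 45.3 (15.2 to 223). Bmp4 lay the other way, with 126 control and 33 mutant UMIs. Per cell, 36 of 85 control cells had a Bmp4 UMI and 3 had a Bmp2 UMI, whereas 16 of 64 mutant cells had Bmp4 and 19 had Bmp2. Bmp4 without Bmp2 was seen in 35 control and 9 mutant cells, Bmp2 without Bmp4 in 2 control and 12 mutant cells, and both in 1 control and 7 mutant cells. In the other 47 control and 36 mutant cells neither was seen.

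Depth differed within this class and bears on both ligands. Cells above 40000 UMIs numbered 8 in the control, with 33.1% of the class UMIs, and 11 in the mutant, with 60.1%. Of the 127 mutant Bmp2 UMIs, 52 came from 1 cell and 18 from the next, and the 7 mutant cells with both ligands held 98. Without the richest cell the mutant Bmp2 level was 63.7 CPM. Without all cells above 40000 UMIs, Bmp2 was 2.15 CPM from 2 UMIs in the control and 23.1 CPM from 12 UMIs in the mutant, too few for a call, and Bmp4 was 78.3 and 36.6 CPM. Of the class, 5.88% of control and 21.9% of mutant cells were in the top 6% of doublet scores of their library. The part of deep cells and doublets in the Bmp2 level was not tested beyond these values.

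**Figure D2:**
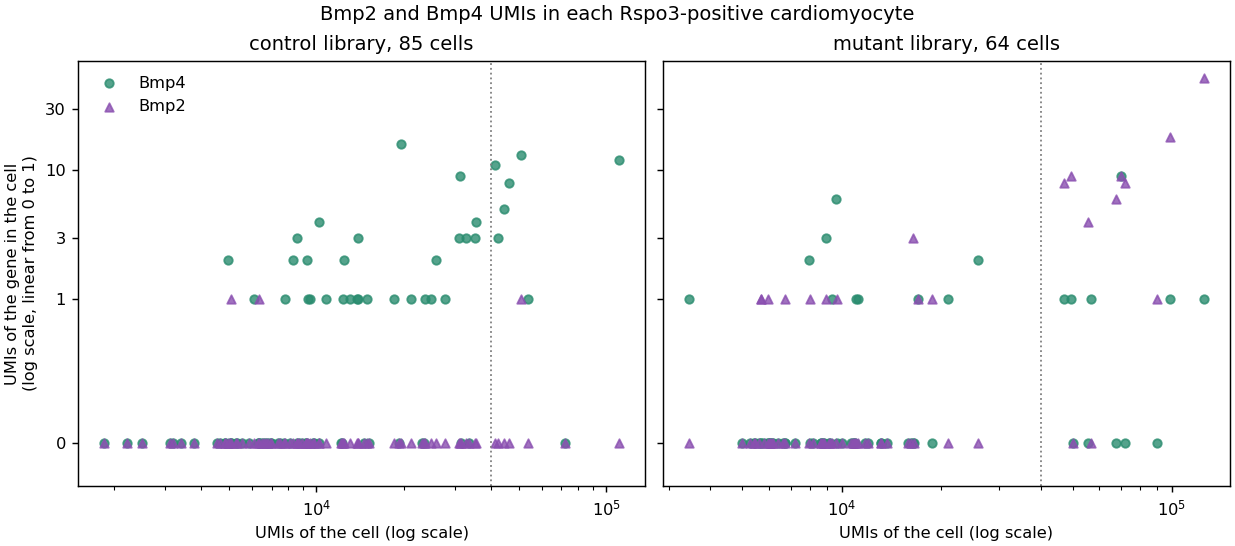
UMIs of Bmp4 (green circles) and Bmp2 (purple triangles) in each Rspo3-positive cardiomyocyte (vertical axis, logarithmic above 1 and linear from 0 to 1) against the UMIs of that cell (horizontal axis, logarithmic), for 85 control and 64 mutant cells. The dotted line marks 40000 UMIs. Most Bmp4 points above 0 lie in the control and most Bmp2 points above 0 in the mutant, and the cell with 52 Bmp2 UMIs is the deepest of the mutant cells.

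Other genes differed in the same class. Tbx3 and Tbx2, transcription factors known from the atrioventricular canal, stood at 1.43 and 17.9 CPM in the control and at 40.7 and 33.8 CPM in the mutant. Isl1, a gene of the outflow tract and sinus node chosen after its values were seen, stood at 45.2 CPM in the control and 8.45 CPM in the mutant. Myl1 and Nppa, likewise chosen afterwards, were 68.2 and 86.1 CPM in the control and 566 and 444 CPM in the mutant. In cells with Bmp4 and no Bmp2, Isl1 was 61.5 CPM in the control and 64.1 CPM in the mutant. It was at 0 UMIs in the 12 mutant cells with Bmp2 and no Bmp4 and in the 7 with both. Without cells above 40000 UMIs, Tbx3 was 2.15 and 25 CPM, Tbx2 22.5 and 26.9 CPM, which is below 1.5-fold, Isl1 38.6 and 17.3 CPM, and Myl1 84.7 and 273 CPM. Nppa turned its direction without those cells, at 97.6 CPM in the control and 80.8 CPM in the mutant. The ventricular marker set summed to 13050 CPM in the control and 7725 CPM in the mutant cells of this class, and the atrial set to 102 and 655 CPM. Whether the Rspo3 gate holds the same mixture of cells in both libraries was not tested, so these are values of the gated cells of 2 libraries.

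Bmpr1a, the type I receptor, was present in every class at low levels. In the control it ran from 9.99 CPM in endothelial to 27.8 CPM in epicardial cells, and all neighbours in that order overlap in their intervals. In the mutant, epicardial cells were again highest at 32.2 CPM. Classes further apart in the order did differ: in both libraries the epicardial interval lay above those of atrial and ventricular cells. Ratios were 1.16 (0.678 to 2.02) in epicardial, 1.44 (0.913 to 2.32) in mesenchymal and 1 (0.589 to 1.70) in Rspo3-positive cells. Endothelial cells were the exception, with 12 UMIs in the control and 36 in the mutant, 9.99 and 20.6 CPM and a ratio of 2.07 (1.05 to 4.36). Without the richest cell of each library the endothelial levels were 9.20 and 18.7 CPM, which no longer passed 1.5-fold with 10 CPM added to each.

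The Id genes were highest outside the myocardium. Id3 was 1172 CPM in control and 1603 CPM in mutant mesenchymal cells, from 1850 and 4278 UMIs. Endothelial cells followed with 850 and 1060 CPM, and epicardial cells with 575 and 655 CPM. Cardiomyocytes had far less: 117 and 306 CPM in Rspo3-positive, 56.6 and 51.7 CPM in ventricular and 39.8 and 68.5 CPM in atrial cells. Erythroid cells, taken as a class that should lack these genes, held 7.04 and 17.4 CPM. At 1000 UMIs per cell, 60.4% of control and 67.8% of mutant mesenchymal cells had an Id3 UMI, against 1.65% and 0.565% of erythroid cells. Unthinned, these shares were 78.0%, 88.5%, 2.48% and 3.39%. The median depth was 1879.5 and 2254 UMIs in mesenchymal and 16935 and 14931 UMIs in erythroid cells. In the control, free RNA traced by haemoglobin was estimated at 0.211% to 0.701% of class UMIs.

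Id3 was higher in the mutant library in 5 of the 6 classes with all cells, and in ventricular cells its direction depended on the deepest cells. The ratio was 1.37 (1.30 to 1.45) in mesenchymal, 1.25 (1.15 to 1.35) in endothelial, 1.14 (1.02 to 1.28) in epicardial, 1.72 (1.48 to 2) in atrial and 2.62 (2.18 to 3.16) in Rspo3-positive cells. In endothelial cells 2 control cells held 152 and 117 of the 1021 UMIs, and 2 mutant cells held 74 and 62 of 1849. The control endothelial level was 696 CPM without cells above 40000 UMIs. With all cells the ventricular ratio was 0.912 (0.840 to 0.991), but 2 control cells held 105 and 84 of the 1303 UMIs, and 14.4% of control and 22.3% of mutant cells had a UMI. The ventricular levels without cells above 40000 UMIs were 37.2 CPM in the control and 43.0 CPM in the mutant. In the heart muscle Id3 came from few cells: 80 of 416 control and 79 of 306 mutant atrial cells had any. The richest single cell held 37 of 310 and 63 of 394 atrial UMIs. Without it in each library the atrial levels were 35.6 and 57.9 CPM, under 1.5-fold once 10 CPM was added. In the same atrial cells the endothelial markers summed to 35.4 and 55.6 CPM, the epicardial markers to 38.8 and 62.2 CPM and the immune markers to 61.0 and 0.174 CPM. Of the endothelial markers, Egfl7 was 21.0 and 37.7 CPM and Emcn had 2 and 17 UMIs. Pecam1 had 4 and 1 UMIs and Cdh5 had 2 and 2. The part of other cell types in the atrial Id levels was not tested.

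Id1, a direct BMP target, was 294 and 338 CPM in mesenchymal, 161 and 178 CPM in epicardial and 121 and 147 CPM in endothelial cells. Its mutant level was 1.15 times the control level (1.03 to 1.29) in mesenchymal cells, 1.11 times (0.892 to 1.39) in epicardial and 1.21 times (0.982 to 1.49) in endothelial cells. Ventricular cells held 18.9 and 17.3 CPM and atrial cells 9.75 and 9.21 CPM, with ratios of 0.915 (0.792 to 1.06) and 0.945 (0.652 to 1.36). The atrial direction turned without cells above 40000 UMIs, at 8.28 and 10.5 CPM. Rspo3-positive cells were again apart, with 24.4 CPM from 34 UMIs and 49.9 CPM from 65 UMIs, a ratio of 2.05 (1.33 to 3.20).

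Id2, an Id gene also used in the conduction system and in ventricular muscle, was found in all 6 classes. It stood at 239 and 395 CPM in mesenchymal, 177 and 180 CPM in epicardial, 107 and 147 CPM in endothelial and 99.7 and 164 CPM in Rspo3-positive cells. Ventricular cells held 47.6 and 62.3 CPM and atrial cells 36.8 and 58.2 CPM. The mutant level was 1.65 times the control level (1.47 to 1.87) in mesenchymal, 1.64 times (1.32 to 2.05) in Rspo3-positive, 1.58 times (1.35 to 1.86) in atrial, 1.37 times (1.10 to 1.70) in endothelial and 1.31 times (1.21 to 1.42) in ventricular cells. Epicardial cells stood out by their ratio of 1.02 (0.822 to 1.26). Id4 was rare throughout, highest at 14.6 CPM in control mesenchymal and 15.3 CPM in mutant epicardial cells, from 23 and 21 UMIs.

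Summed over Id1, Id2, Id3 and Id4, the level was 922 and 1029 CPM in epicardial cells, a ratio of 1.12 (1.02 to 1.22). Ventricular cells had 125 and 132 CPM, a ratio of 1.06 (1 to 1.12). These were the classes with the smallest difference, and in ventricular cells the sign of the log2 ratio turned with stricter gates, at -0.020, and in joint clusters, at -0.040. The sum was 1719 and 2344 CPM in mesenchymal cells and 1081 and 1358 CPM in endothelial cells, with ratios of 1.36 (1.30 to 1.43) and 1.26 (1.17 to 1.35). Atrial cells had 87.0 and 138 CPM, a ratio of 1.59 (1.43 to 1.76), and Rspo3-positive cells 246 and 528 CPM, a ratio of 2.14 (1.88 to 2.45). Without cells above 40000 UMIs the latter were 239 and 408 CPM. The difference was also seen in Rspo3-positive cells with neither Bmp2 nor Bmp4, whose Id sum was 169 CPM in 47 control and 416 CPM in 36 mutant cells. In cells with Bmp4 and no Bmp2 the sum was 297 and 346 CPM. Mutant cells with Bmp2 and no Bmp4 had 455 CPM, and those with both ligands had 757 CPM. The cells with both include the deepest mutant cell of the class, of 124892 UMIs, and 1 cell of 47013 UMIs that held 105 Id UMIs. A ligand UMI is more likely to be seen in a deep cell, and these subsets were not matched for depth. The part of depth in their order was not tested.

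**Figure D3:**
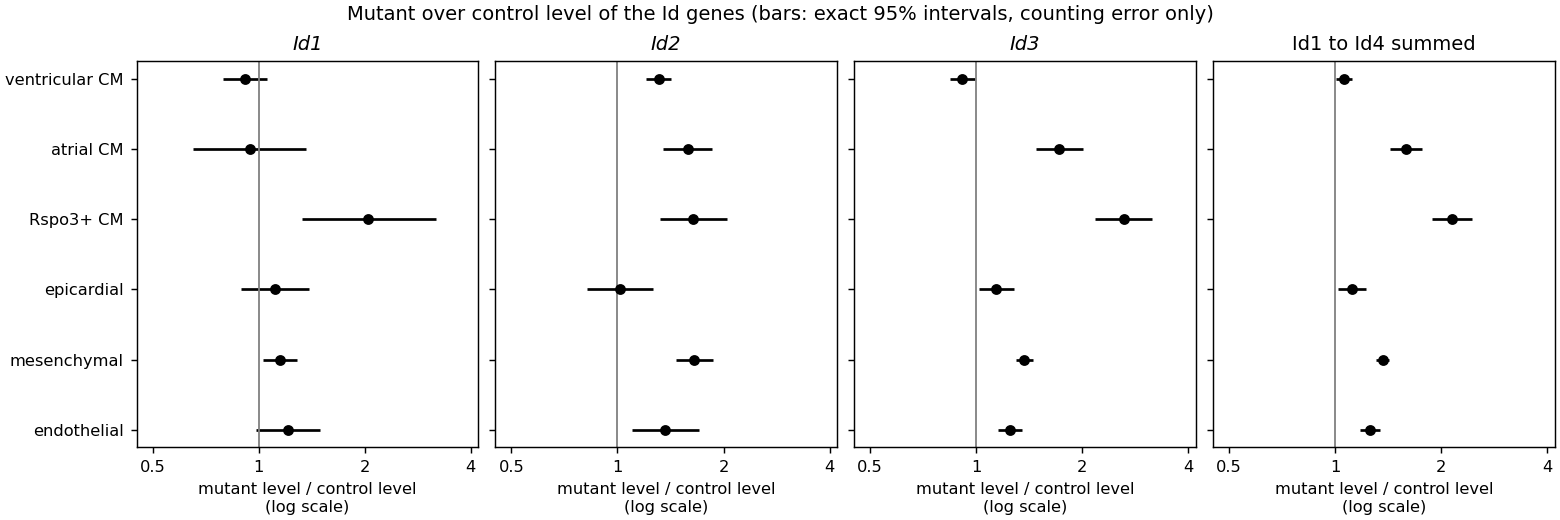
Mutant level divided by control level (horizontal axis, logarithmic) of Id1, Id2, Id3 and the sum of Id1 to Id4 in the 6 cell classes (vertical axis). Points are ratios of 1 library to 1 library and bars are exact 95% intervals for counting error. The sum lies to the right of 1 in all 6 classes, from 1.06 in ventricular to 2.14 in Rspo3-positive cardiomyocytes, while Id2 in epicardial cells sits at 1.02.

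The count of genes past 1.5-fold was set against all genes that passed the same minimums, a mean of 10 CPM and 30 UMIs over both libraries, with 10 CPM added to each level. In ventricular cells 5 of the 10 genes passed the minimums and 0 were past 1.5-fold, where 0.629% of all 5244 genes were, 0.324% higher and 0.305% lower. In atrial cells 1 of 4 was higher, Id3, where 0.443% of all 5637 genes were higher, 0.692% lower and 1.14% either. In Rspo3-positive cells 4 of 7 were higher, Bmp2, Id1, Id2 and Id3, where 6.3% of 5495 genes were, and Bmp4 was lower, where 3.71% were. In epicardial cells 0 of 5 were past 1.5-fold, where 7.57% of 5851 genes were, 2.19% higher and 5.38% lower. In mesenchymal cells 1 of 7 was higher, Id2, where 1.23% of 6818 genes were higher, 1.45% lower and 2.68% either. In endothelial cells Bmpr1a of the 5 tested was higher, where 4.34% of 6295 genes were, and Bmp4 was lower, where 1.14% were, 5.48% in either direction. Both endothelial calls were lost without the cell richest in the gene, as was the atrial call of Id3. In Rspo3-positive cells the Id2 call was lost with equal weight per cell, without the top 6% of doublet scores, in joint clusters and without cells above 40000 UMIs, and the Id1 call with looser gates and at a minimum of 50 CPM. The Bmp2 call was lost without cells above 40000 UMIs. The mesenchymal Id2 call was lost with equal weight per cell and the atrial Id3 call with looser gates. With cells thinned to 1000 UMIs, which leaves fewer UMIs per gene, 0 members were past 1.5-fold in Rspo3-positive, atrial or mesenchymal cells.

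The median log2 ratio of the members that passed was 0.12 in ventricular, 0.40 in atrial, 0.66 in Rspo3-positive, 0.14 in epicardial, 0.19 in mesenchymal and 0.32 in endothelial cells. Over all genes that passed, the medians were 0.03, -0.05, 0.05, -0.04, 0.00 and 0.04 in the same order. The median of the members thus sat above that of all genes in each class, by the amounts given and without a test. This does not hold for every member. Among those below were Id1 at -0.08 and Id3 at -0.11 in ventricular cells, Id4 at -0.43 in mesenchymal cells and Bmp4 at -1.51 in Rspo3-positive cells.

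The higher Id level of the mutant library was looked for in subsets of each class, as the plot of the Id sum by subset shows. Outside the vessel wall subset, mesenchymal cells with 2 or more UMIs of Tcf21, a gene of fibroblast precursors, had 1945 and 2407 CPM. Those with no Tcf21 UMI had 1562 and 1975 CPM. The mutant was higher in both subsets. The vessel wall subset had 1578 CPM in 38 control and 3473 CPM in 30 mutant cells, and all of Id1, Id2 and Id3 shared in it, with 247 and 617, 378 and 696, and 953 and 2151 CPM. Isl1 was 95.8 CPM in the control cells of that subset and at 0 UMIs in the mutant cells, and its part in the Id difference was not tested. Mesenchymal cells with 2 or more UMIs of cycling genes had 1745 and 2616 CPM and those with none had 1688 and 2170 CPM. Cycling markers themselves summed to 1138 CPM in control and 1010 CPM in mutant mesenchymal cells.

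**Figure D4:**
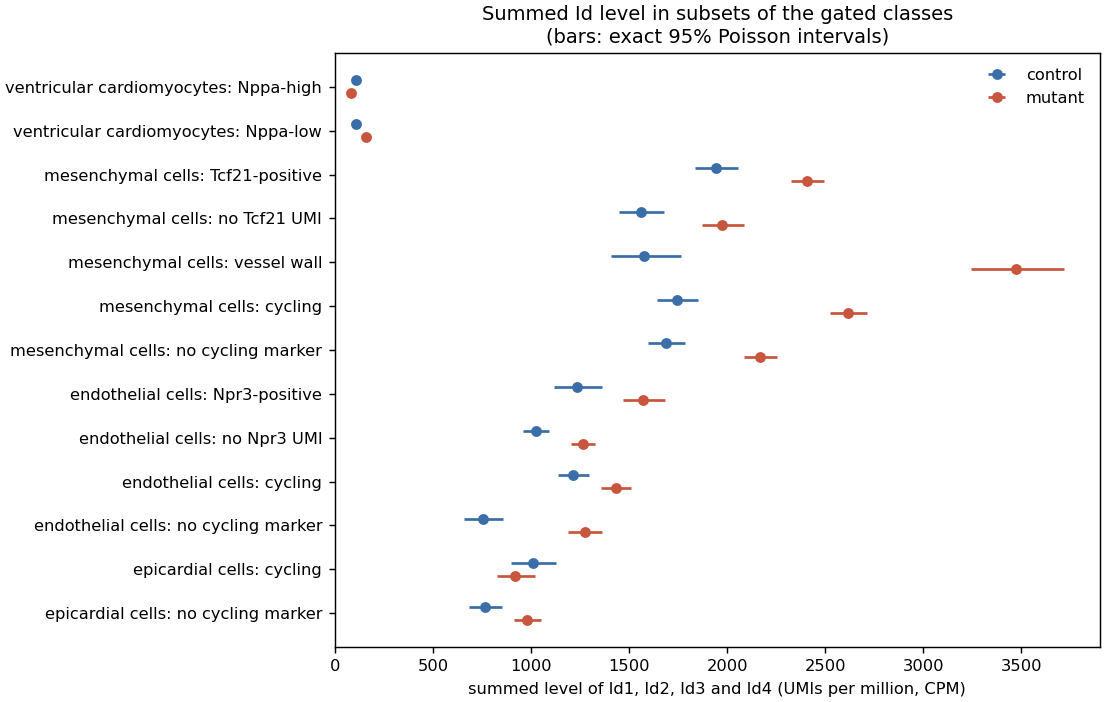
Summed level of Id1, Id2, Id3 and Id4 in CPM (horizontal axis, from 0) in subsets of 4 cell classes (vertical axis), control in blue and mutant in red, with exact 95% Poisson intervals. The widest gap is in the vessel wall subset of mesenchymal cells, 1578 and 3473 CPM, and the order of the libraries is turned in Nppa-rich ventricular and in cycling epicardial cells.

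Ventricular cells divided by Nppa. Nppa-rich cells had an Id sum of 106 CPM in the control and 84.5 CPM in the mutant, and Nppa-poor cells 109 and 158 CPM. Id2 was 38.6 and 36.5 CPM in Nppa-rich cells but 47.5 and 72.0 CPM in Nppa-poor cells, and Id3 was 47.4 and 32.4 against 43.6 and 65.7 CPM. The libraries differed in opposite directions in these subsets with all cells. The subset levels were not repeated without the richest or deepest cells, on which the direction of Id3 in the whole class depended. Cells between the Nppa limits are in neither, so the subsets do not make up the class. Nppa was itself used to make these subsets, so its levels are not compared.

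Epicardial cells also divided, by cycling genes. Cells with 2 or more UMIs of these genes had an Id sum of 1008 CPM in the control and 919 CPM in the mutant, from 41 and 66 cells. Cells with none had 766 and 981 CPM, from 148 and 252 cells. The intervals of the cycling cells overlap. Immediate early genes, a sign of stress during dissociation among other things, summed to 3181 CPM in control and 1455 CPM in mutant epicardial cells, with 9 of 10 lower in the mutant. In mesenchymal cells they summed to 3036 and 3358 CPM and in endothelial cells to 2406 and 3167 CPM. Their part in the Id levels was not tested. Epicardial Upk3b, a mesothelial marker, was 926 CPM in the control and 667 CPM in the mutant.

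Endothelial cells were split by Npr3, a gene of the endocardium. In 34 control and 60 mutant cells with Npr3, Id1 was 49.0 and 171 CPM, while in cells with no Npr3 UMI it was 149 and 136 CPM. The Id sum was higher in the mutant in both, 1234 and 1573 CPM with Npr3 and 1024 and 1264 CPM without. Bmp4 in Npr3-positive cells was 39.8 CPM from 13 control UMIs, and the mutant had 0 UMIs, which allows up to 5.69 CPM with 3 UMIs as the limit. With no Npr3 UMI, Bmp4 was 14.9 and 11.5 CPM. Tcf21, a mesenchymal gene, stood at 25 CPM in control and 83.1 CPM in mutant endothelial cells, and its part in these values was not tested.

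The rest of the pathway was read from lists of ligands, receptors, antagonists, Smads, other responsive genes and E proteins, drawn in the heat map of the pathway. In ventricular and atrial cells few genes on these lists met the minimums, 1 of 12 ligands, 2 of 7 responsive genes and all 3 E proteins in each class, and no gene that met them passed 1.5-fold. Msx2 was below the minimum level in atrial cells, with 3 UMIs in 3 control cells and 33 UMIs in 10 mutant cells, a ratio of 14.9 (4.67 to 75.9). Bambi, a decoy receptor that is itself induced by BMP, was high in every class and highest in Rspo3-positive cells, at 671 and 831 CPM. It stood at 260 and 286 CPM in ventricular, 251 and 257 CPM in atrial, 482 and 579 CPM in epicardial, 454 and 603 CPM in mesenchymal and 161 and 201 CPM in endothelial cells. The mutant value was the higher of the pair in all 6 classes, and below 1.5-fold in each.

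**Figure D5:**
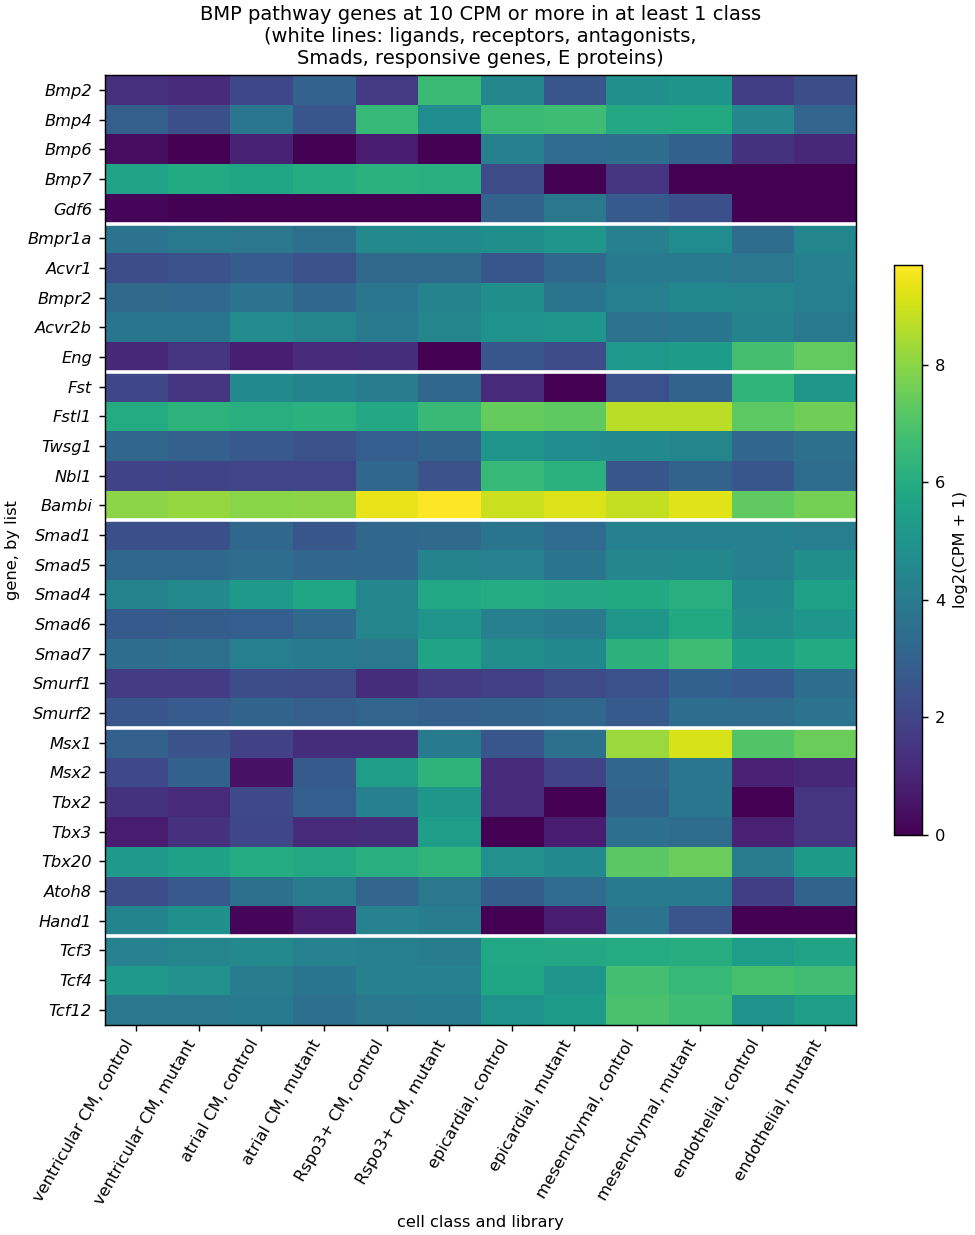
Level of the 32 listed pathway genes that reached 10 CPM in at least 1 class, as log2(CPM + 1) by colour, with genes in rows by list and the 6 classes of both libraries in columns. Bambi is bright in every column, Msx1 is bright in mesenchymal cells and Bmp7 is visible only in the cardiomyocyte columns and faintly in control epicardial and mesenchymal cells.

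In epicardial cells Bmpr2, a type II receptor, was 27.8 CPM in the control and 12.4 CPM in the mutant, the 1 receptor of 3 tested past 1.5-fold. Of all genes tested in epicardial cells, 5.38% were lower past 1.5-fold. The tested ligand, the 4 antagonists, 4 Smad genes, 1 responsive gene and 3 E proteins of the lists were not past it in that class. Fstl1, a secreted modulator, stood at 169 and 154 CPM, Nbl1, an antagonist, at 88.5 and 71.6 CPM, and Smad4, the common partner Smad, at 62.0 and 57.0 CPM. The E protein genes Tcf3 and Tcf4 stood at 55.6 and 57.0 CPM and at 51.8 and 32.9 CPM.

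Mesenchymal cells had 1 of 6 responsive genes and 1 of 5 Smad genes higher, where 1.23% of all genes tested were. Msx1, a homeobox gene of cushion mesenchyme that responds to BMP, was 303 CPM in the control and 550 CPM in the mutant. Smad6, an inhibitory Smad induced by the pathway, was 34.2 and 58.8 CPM. Smad7, the other inhibitory Smad, was 73.5 and 102 CPM, and Tbx20 was 148 and 178 CPM, both below 1.5-fold. Fstl1 was nearly equal, at 414 and 412 CPM. Of 2 ligands, 5 receptors, 3 antagonists and 3 E proteins tested, none passed. Tcf12 and Tcf4, the E protein genes highest here, were 118 and 103 CPM and 110 and 88.4 CPM.

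Endothelial cells had 1 of 6 Smad genes higher, Smad4, at 24.1 and 45.9 CPM, and 1 of 2 responsive genes higher, Tbx20, at 15.8 and 38.4 CPM. Of all genes tested in endothelial cells, 4.34% were higher and 1.14% lower. Fst, an antagonist that binds activins and BMPs, was the 1 of 3 antagonists lower, at 79.9 and 33.8 CPM. Calls of list genes other than members were not repeated without the richest cell. Eng, a co-receptor of endothelium, was 115 and 163 CPM, Msx1 133 and 182 CPM, and Smad7 44.1 and 60.8 CPM, none past 1.5-fold. Tcf4 was 116 and 104 CPM.

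In Rspo3-positive cells 3 of 4 Smad genes, 3 of 5 responsive genes and 1 of 3 antagonists tested were higher in the mutant and none was lower. Smad4 was 21.5 and 54.5 CPM, Smad7 13.6 and 49.1 CPM and Smad5 8.61 and 19.2 CPM, and Smad6 was 20.1 and 32.3 CPM, below the call. The responsive genes were Tbx3, Tbx2, which was below 1.5-fold without cells above 40000 UMIs, and Msx2, at 41.6 and 78.3 CPM. These Smad and Msx2 levels are those of all cells. Cells above 40000 UMIs held 33.1% of the class UMIs in the control and 60.1% in the mutant. Without them the control levels were 19.3 CPM for Smad4, 9.65 CPM for Smad7, 10.7 CPM for Smad6 and 59.0 CPM for Msx2. The mutant levels of these genes without such cells are not given here, so the calls rest on all cells. The part of deep cells in the calls was not tested. With all cells, Fstl1 was 57.4 and 92.9 CPM. None of the 3 receptors or 3 E proteins tested passed. The class held the largest share of genes past 1.5-fold in either direction, 10% of those tested, against which all counts in it are to be read. The E protein list had all 3 genes tested in each of the 6 classes, none past 1.5-fold, with medians from -0.20 to 0.18.

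Genes with the most similar pattern were ranked by Pearson's r of log2(CPM + 10) over the 12 class and library values, among 3578 genes that reached 50 CPM and were not gate markers. The 12 points share 2 libraries, so r is a description. For Bmp7 the nearest were Nkx2-5 at 0.994, Atcayos at 0.993 and Uqcrh at 0.993. Id1 came closest to Itgb1, Mfap2 and Snrnp27, from 0.984 to 0.981. Id3 came closest to H3f3b, Son and Chic2, from 0.978 to 0.973, and Id2 to Impad1, Rala and Dpysl2, from 0.944 to 0.938. Bmp4 was nearest to Tceal9, Gm5617 and Haghl, from 0.920 to 0.903. Bmp2 was nearest to Tmem60 at 0.887, Unc5b at 0.879 and Smim14 at 0.816, with all 4 highest in mutant Rspo3-positive cells. Bmp10 was nearest to Tnnt3, Gamt and Igfbpl1, from 0.885 to 0.876, all highest in mutant atrial cells. Id4 was nearest to Tm2d2, Ndufa7 and Pcm1, from 0.921 to 0.899.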

How the data were processed

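The authors' deposited counts are UMIs per gene and barcode. Cell Ranger 3.0.2 is named per the file headers, and Seurat per the submitters' processing notes. No source used here gives the genome build of the counting. Depth was 49323576 UMIs for the control library and 48527471 for the mutant library. The control matrix was unfiltered (542175 barcodes with a UMI) and the mutant one held 7181 barcodes of 500 UMIs or more. Cells with 1000 UMIs, 500 genes and at most 20% mitochondrial UMIs were kept, and 8 of their barcodes occur in both libraries. Scrublet's automatic threshold marked 3 and 17 cells, too few to have worked, so no doublets were removed.

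Classes were gated on marker UMIs per 10000 UMIs of a cell. Cardiomyocytes had 100 or more of their set, divided into ventricular (50 or more, atrial under 8), atrial (8 or more) and Rspo3-positive (2 Rspo3 UMIs, 1.5 per 10000, 1 Kcne1 UMI). Epicardial, mesenchymal and endothelial cells had 8 or more with 2 distinct markers. Mesenchymal and endothelial cells also had under 4 of the epicardial set. Cells through both the epicardial and the mesenchymal gate were kept as epicardial. Cells through the endothelial gate and either of those gates (43 and 80) were left out, as were cells in no class (892 and 1275). The shares were set on the data and revised once after member levels had been seen, since Ramp2 alone had passed mesenchymal cells as endothelial. Members and lists were chosen with earlier results of these data known, and subsets and immediate early genes after values were seen. Subsets took 2 or more UMIs of Tcf21, of the cycling genes or of Cxcl12 and Eln together, and 1 or more of Npr3. Cells with 1 UMI of Tcf21 or of the cycling genes are in neither of the paired subsets. Nppa-rich cells had 10 or more and Nppa-poor cells under 2 Nppa UMIs per 10000.

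CPM, the plain ratio with an exact conditional binomial interval, and exact Poisson and Clopper-Pearson intervals (95%) were computed in Python 3.11.15 with numpy 2.4.6, scipy 1.17.1 and pandas 2.3.3; scanpy 1.11.5 and leidenalg 0.10.2 made the doublet scores and joint clusters. Calls used log2((CPM mutant + 10)/(CPM control + 10)) past 1.5-fold. The ratio and its interval were tested on simulated data. Shares with a UMI were compared after thinning to 1000 UMIs per cell. The named genes are all members, list genes past 1.5-fold in epicardial cells or at 50 CPM or more in the class (at most 6 per list) and the 3 most similar genes of 8 members. Further genes (such as Isl1, Myl1, Nppa, Tcf21, Upk3b and list genes below 50 CPM) were named with their values already known. GENCODE M21 held 99.6% of gene identifiers.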

Additional observations from a re-analysis of the deposited data

How the results depend on the processing

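Of 168 values of the 12 counts and Id sums under alternatives, 124 held and 44 moved. Of 462 member values, 418 held and 44 moved. No ratio past 1.5-fold changed sign, while the ventricular Id sum, which was not past it, did so in 2 settings below. Where they moved, the cause was not tested. The alternatives without the richest cell and without cells above 40000 UMIs were chosen after seeing the data. No paired analysis was possible because there is 1 library per genotype.

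Members past 1.5-fold were 5 in Rspo3-positive, 1 in atrial, 2 in endothelial, 0 in epicardial and 1 in mesenchymal cells. With cells thinned to 1000 UMIs, which leaves fewer genes above the minimums, these became 0, 0, 1, 0 and 0. Without cells above 40000 UMIs they were 3 in Rspo3-positive, 2 in atrial and 1 in endothelial cells. Without the richest cell they were 0 in atrial and 0 in endothelial cells. With equal weight per cell they were 0 in atrial and 1 in endothelial cells, and centred on the median of all genes 2 and 1. In atrial cells they were 0 without the top 6% of doublet scores, 2 with a pseudocount of 1 or no minimum level and 4 in joint clusters. In endothelial cells they were 0 with looser gates, at 50 CPM or more and in joint clusters. The 1 endothelial member left when thinned, with equal weight and without cells above 40000 UMIs was Id2, so both Bmpr1a and Bmp4 were lost in all 3. With an unchanged count of 1, the atrial member was Bmp4 lower with looser gates and the mesenchymal member Id4 lower with equal weight. Mesenchymal cells had 2 with a pseudocount of 1, and epicardial cells 1 with no minimum, Bmp2 lower.

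The log2 ratio of the Id sum was 1.07 in Rspo3-positive, 0.61 in atrial, 0.33 in endothelial, 0.16 in epicardial, 0.45 in mesenchymal and 0.08 in ventricular cells. Thinned, it was 0.40 in Rspo3-positive, 0.30 in atrial, 0.55 in endothelial, 0.30 in mesenchymal and 0.18 in ventricular cells. Without cells above 40000 UMIs it was 0.75 in Rspo3-positive, 0.88 in atrial, 0.55 in endothelial and 0.21 in ventricular cells. With equal weight per cell it was 0.54 in endothelial, 0.30 in epicardial, 0.34 in mesenchymal and 0.31 in ventricular cells. Joint clusters gave 0.79 in Rspo3-positive, 0.36 in epicardial, 0.37 in mesenchymal and -0.040 in ventricular cells, with only 33 and 43 epicardial cells. Without the top 6% of doublet scores it was 0.79 in Rspo3-positive and 0.39 in atrial cells. Looser gates gave 0.82 in Rspo3-positive cells, and stricter gates 0.81 in atrial and -0.020 in ventricular cells.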
